A study of Mus musculus with 2 samples.

Results

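Olig2 ChIP-Seq of the adult mouse spinal cord returned 4215 peaks, and 7 of them had Olig1 or Olig2 as their nearest gene in the deposited annotation. These 7 peaks, 3 of Olig1 and 4 of Olig2, were taken as the peaks of the locus that encodes Olig2 itself and its neighbor Olig1, and no peak score was used to choose them. The chromatin was that of intact spinal cords from C57BL/6 males of 6 weeks, with 5 cords combined for each IP. The 2 groups were Olig2 ChIP and an Input Control of the same tissue, and the labels give neither a treatment nor an altered allele. The reads of 2 experiments were pooled before peaks were called once, so each peak has 1 score and no replicate error. All comparisons that follow are therefore descriptions of this list without a statistical test. The scale of the score is not named in the deposited list, and the number of reads behind a peak is unknown. The tissue holds neurons, astrocytes and other cells beside the oligodendrocyte (OL) lineage, and binding in a few cells cannot be told apart from weak binding in many.

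Olig1 and Olig2 encode basic helix-loop-helix (bHLH) transcription factors, which bind DNA as dimers at the hexamer CANNTG, known as the E-box. Olig2 specifies motor neuron progenitors and OL precursors in the ventral spinal cord and mainly represses transcription, whereas Olig1 acts chiefly in the maturation of OLs and the repair of myelin. A transcription factor that occupies the regulatory DNA of its own gene may raise or lower its own transcription, an arrangement called autoregulation, and occupancy alone does not tell in which direction.

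Each peak is given as 51 bp in the coordinates of mm10 (GRCm38), so its width carries no information. The peaks are called here by the distance of their center from the transcription start site (TSS) of the nearer gene. The 6 peaks away from the Olig2 promoter are printed whole, from the plus strand of the RefSeq assembly GRCm38.p6, so that their E-boxes can be compared. Capitals mark each CANNTG that lies fully within the 51 bp.
Olig2 −41.1 kb, chr16:91184395-91184445: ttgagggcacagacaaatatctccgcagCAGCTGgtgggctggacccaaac
Olig2 −33.4 kb, chr16:91192077-91192127: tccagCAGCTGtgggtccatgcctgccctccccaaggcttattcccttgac
Olig2 +20.9 kb, chr16:91246383-91246433: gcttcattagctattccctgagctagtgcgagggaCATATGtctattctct
Olig1 −6.8 kb, chr16:91262941-91262991: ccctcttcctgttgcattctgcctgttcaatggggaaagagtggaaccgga
Olig1 −3.6 kb, chr16:91266137-91266187: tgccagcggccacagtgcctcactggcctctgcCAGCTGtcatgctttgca
Olig1 +36.2 kb, chr16:91305912-91305962: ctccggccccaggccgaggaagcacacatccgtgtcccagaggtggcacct

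The seventh peak lay at the Olig2 promoter, chr16:91225465-91225515. The 30 bases at its middle are shown because they hold its only deposited motif hit, in capitals.
Olig2 promoter peak, chr16:91225475-91225504: aaaagcacatTGTTCCCGCCccccgcccgg

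Along chromosome 16 the 7 peaks covered 121.568 kb, from 91184395 to 91305962, and no peak of another gene lay between them. Olig2 (RefSeq 91225550-91228677) and Olig1 (RefSeq 91269769-91271939) lie on the plus strand with their starts 44219 bp apart. There were 3 peaks upstream of or at the Olig2 start, 3 between both starts and 1 beyond the Olig1 start. No peak of the list fell within the RefSeq body of either gene. Distances between neighboring centers, in order along the chromosome, were 7682, 33388, 20918, 16558, 3196 and 39775 bp. The closest pair was therefore the −6.8 and −3.6 kb peaks of Olig1, and no pair of peaks lay near enough to overlap.

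**Figure D1:**
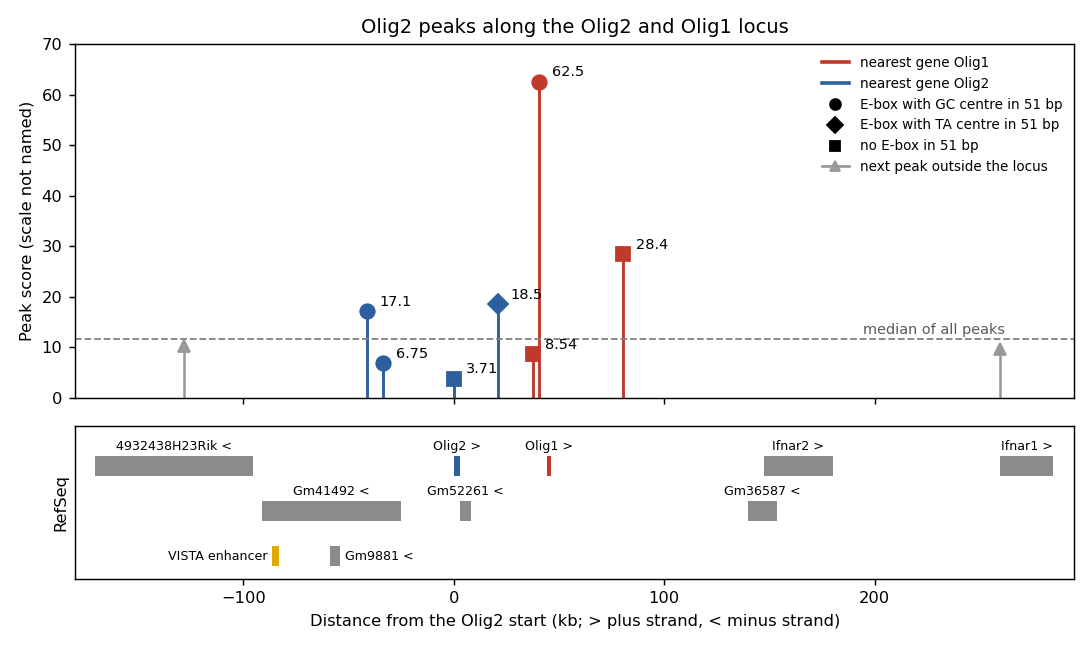
Peak score against the distance from the Olig2 start in kb, with 1 stem for each of the 7 peaks (red, nearest gene Olig1; blue, nearest gene Olig2) and grey stems for the next peak on each side; the lower track shows nearby RefSeq genes and 1 VISTA enhancer to scale. The highest stem, at 62.5, stands just upstream of Olig1, and the stem at the Olig2 start is the lowest, at 3.71.

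The highest score of the locus, 62.5, belonged to the −3.6 kb peak of Olig1, which ranked 83 among all 4215 peaks and 2 among the 160 peaks of chromosome 16. It lies in intergenic sequence in both RefSeq and GENCODE M21, 40612 bp downstream of the Olig2 start and 3607 bp upstream of the Olig1 start. Its score was 2.20 times the next highest of the locus. Because the scale of the score is not named, this ratio does not measure an amount of binding.

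The +36.2 kb peak of Olig1 followed with a score of 28.4 and rank 537. RefSeq has no gene there, whereas GENCODE M21 places it in an intron of Gm15966, a long non-coding RNA on the minus strand that starts downstream and ends within Olig1. It was the only peak of the locus beyond the Olig1 start. These were the 2 peaks of the locus above the upper quartile of the list, 19.98.

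Near the middle of the ranking, the +20.9 kb peak of Olig2 scored 18.5 (rank 1194) and the −41.1 kb peak of Olig2 scored 17.1 (rank 1332). Both lay above the median score of all peaks, 11.6, but below the upper quartile. The +20.9 kb peak is intergenic in both annotations and sits almost midway between the genes, 20858 bp from the Olig2 start and 23361 bp from the Olig1 start. Its center is 1251.5 bp from the midpoint of the starts, so its assignment to Olig2 rests on a difference of 2503 bp. The −41.1 kb peak lies in an intron of Gm41492, a long non-coding RNA of the minus strand in RefSeq, and the shorter Gm41492 of GENCODE M21 does not reach it.

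The remaining 3 peaks scored below the median of the list. The −6.8 kb peak of Olig1 had a score of 8.54 (rank 2978) and overlaps an exon of Gm37016, which GENCODE M21 lists as still to be experimentally checked (TEC) and RefSeq does not hold. The −33.4 kb peak of Olig2 scored 6.75 (rank 3387) and lies in an intron of Gm41492 in RefSeq, as does its neighbor 7682 bp upstream. The peak at the Olig2 promoter scored 3.71 (rank 4107), so that 97.8% of all peaks had a score at or above it.

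The promoter peak was thus the weakest of the locus, and the strongest scored 16.8 times as high. Its center is 60 bp upstream of the RefSeq start and 33 bp downstream of the GENCODE start, which is annotated 93 bp farther upstream, so the same peak is promoter in one annotation and first exon in the other. Among the 1572 peaks that HOMER placed in promoters it ranked 1517, against a median score of 10.7 for that class. The Olig1 promoter held no peak of the list. Of the 7 peaks, 6 were intergenic by the deposited annotation, compared with 23.8% of all peaks, and 37.3% of all peaks were in promoters. The median score was 17.1 over the 7 peaks, 28.4 over the 3 of Olig1 and 11.9 over the 4 of Olig2, and the scores of the genes overlapped.

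**Figure D2:**
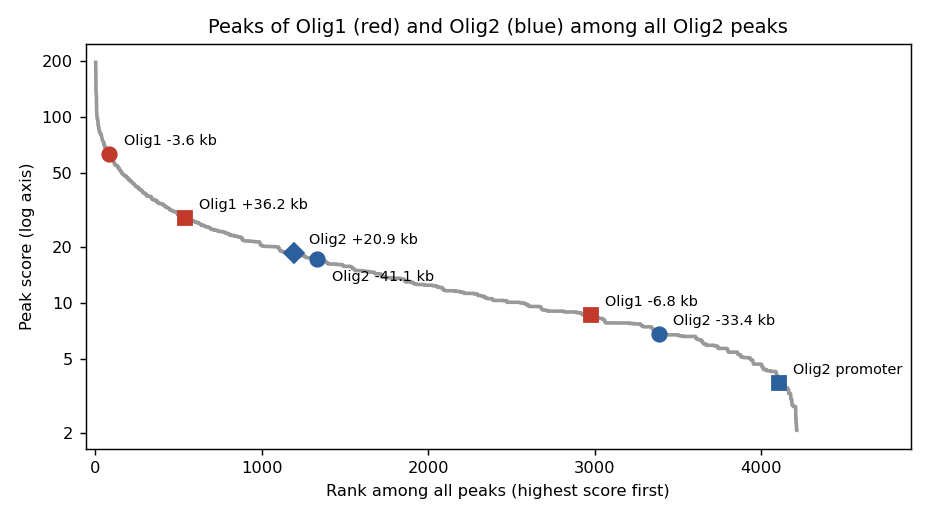
Peak score (log axis) against rank for all 4215 peaks (grey line), with the peaks of Olig1 in red and those of Olig2 in blue; circles hold an E-box with GC at its center, the diamond one with TA, and squares none within 51 bp. The 7 peaks run from rank 83 at a score of 62.5 to rank 4107 at 3.71, so the locus takes in nearly the whole range of the list.

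The E-box motif of the deposited motif search, whose most frequent word is AGCAGCTG, was present in 4 of the 7 peaks, namely the −41.1, −33.4 and +20.9 kb peaks of Olig2 and the −3.6 kb peak of Olig1. The share over the whole list was 60.0%, with 74.6% of the 1002 intergenic peaks and 32.1% of the promoter peaks. Within the locus the motif occurred both at the highest score, 62.5, and at one of the lowest, 6.75. The same 4 peaks held a CANNTG in the genome sequence of their 51 bp, against 51.8% of all peaks.

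In 3 of these peaks, at −41.1, −33.4 and −3.6 kb, the E-box was CAGCTG, a palindrome that 32.9% of all peaks carried within 51 bp. Its center lay at 5.5 bp from the peak center in the −41.1 kb peak, at −17.5 bp in the −33.4 kb peak and at 10.5 bp in the −3.6 kb peak, with negative values to the left. Over the 1387 peaks of the list with a CAGCTG within 51 bp, the median distance to the peak center was 9.5 bp, and 50.3% lay within 10 bp. Only the nearest site fully within the 51 bp was taken, so the width itself keeps these distances short. Even placement was not compared, and the values do not show that E-boxes gather at the center. Of the 3 peaks of the locus, the −33.4 kb peak, with the lowest score, had its E-box farthest from the center. The −3.6 kb peak had a second CAGCTG outside the 51 bp, 68 bp to the left of the first. Of all peaks, 13.1% had at least 2 CAGCTG within 200 bp, and this was the only one in the locus.

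The +20.9 kb peak differed in the form of its E-box. It held CATATG, also a palindrome, at 12.5 bp from its center, a form that only 1.33% of all peaks carried within 51 bp and 2.54% within 200 bp. The deposited search had scored this hit, GACATATG, as the E-box motif as well. CAGATG, the second most frequent form of the list at 14.1% of peaks, was in none of the 7 peaks at 200 bp, where 26.5% of all peaks had one. At 400 bp it was in 2 of the 7, the −41.1 and +20.9 kb peaks of Olig2, and in 36.3% of all peaks.

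The other 3 peaks had no E-box within 51 bp and carried hits of other deposited motifs. All 4215 peaks of the list carry a deposited motif hit, so having some hit does not set these 3 apart. The −6.8 kb peak of Olig1 had TTCAATGG, a hit of a motif found in 18.9% of all peaks whose most frequent word is TGATTGGC. The +36.2 kb peak had CCGGCCCCAG, a hit of a motif found in 1.49%. The promoter peak had TGTTCCCGCC, printed above, a hit of a motif in 4.39% whose most frequent word is GGCGGGACCA.

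The sequence on either side changed the count. In the +36.2 kb peak a CACCTG at 91305958-91305963 runs 1 base beyond the right edge of the 51 bp, and its first 5 bases close the sequence printed above. Another CACCTG was centered 69.5 bp from the peak center. The −6.8 kb peak had its nearest E-box, of the form CAAGTG, at 92.5 bp. With 100 bp around each center 5 of 7 peaks had a CANNTG, against 64.2% of all peaks, and with 200 bp 6 of 7, against 76.6%.

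The promoter peak had no CANNTG within 400 bp, which held for 11.6% of all peaks and 23.2% of promoter peaks. CAGCTG stayed at 3 of 7 peaks at every width, while its share over the list rose to 46.7% at 200 bp. Over the list, peaks with CAGCTG in 51 bp had a median score of 13.8, those with another CANNTG 12.2 and those with none 10.5.

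**Figure D3:**
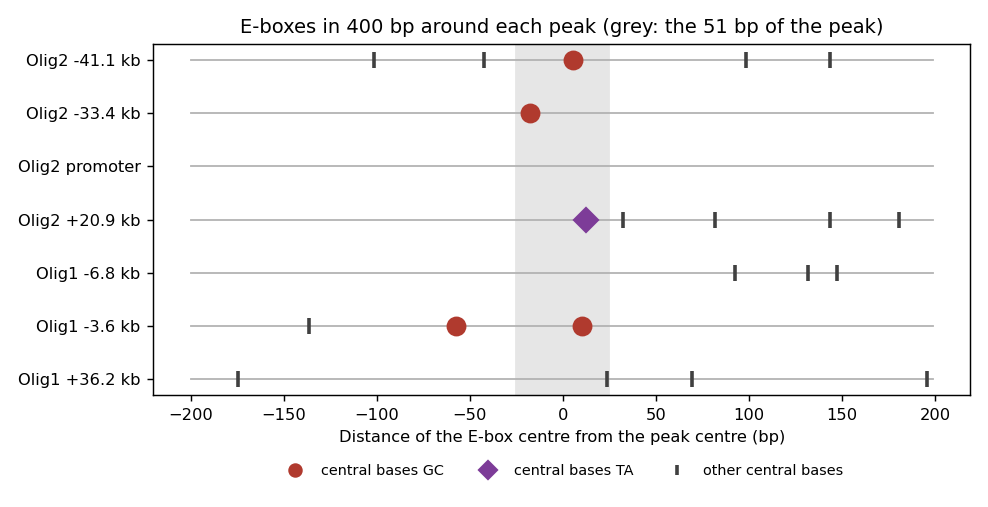
Position of each CANNTG, as the distance of its center from the peak center in bp, in 400 bp around each of the 7 peaks (red circle, central bases GC; purple diamond, TA; black tick, any other); the 51 bp of the peak are grey. An E-box lies fully within the 51 bp in 4 peaks, and the row of the Olig2 promoter is empty. The +36.2 kb peak also has a tick inside the grey band, at 23.5 bp, for an E-box whose last base runs beyond the 51 bp.

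The hexamer CAGCTG was common in the locus beyond the peaks. Between the first and the last peak there were 81 sites, 1 every 1.50 kb, and 4 of them lay within 100 bp of a peak center, which left 77 without a peak of the list. Of the 607 adjacent windows of 200 bp that cover this stretch, 75 (12.4%) held a CAGCTG. The windows with any CANNTG numbered 404 (66.6%), beside 76.6% of all peaks at that width. CATATG occurred 34 times in the same stretch. The GC content of the locus was 47.8%, whereas that of the peaks, as deposited, ran from 45.1% in the +20.9 kb peak to 70.6% in the promoter peak.

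CpG density split the peaks by position. In 500 bp around the center, the ratio of observed to expected CpG was 0.748 at the promoter and between 0.156 and 0.376 at the 6 other peaks. The lowest ratio, 0.156, was that of the −3.6 kb peak, which had the highest score. No repeat lay in the 51 bp of any of the 7 peaks, and repeats took up 13.5% of 200 bp around the −33.4 kb peak and 11.5% around the −6.8 kb peak.

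Words known from other regulators of the locus were searched in 200 bp on both strands. GACCACCCA, the site of Gli proteins, which carry the Sonic hedgehog signal that induces Olig2 in the embryo, was in none of the 7 peaks and in 0.142% of all peaks. ACAATG, a core of Sox sites, was in 3 peaks, those at −33.4 kb, at the promoter and at +20.9 kb of Olig2, against 14.4% of all peaks. ACAAAG, another Sox core, was in the −6.8 kb peak of Olig1 alone, against 18.9%. Neither word was near the 2 peaks with the highest scores. A missing word says only that these letters do not occur in the window.

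The Olig2 promoter was also read on its own, because it is the place where a factor would be looked for first at its own gene. The bases ahead of both annotated starts are shown, with CCAAT, here read as ATTGG on the plus strand, in capitals.
Olig2 promoter, chr16:91225300-91225456: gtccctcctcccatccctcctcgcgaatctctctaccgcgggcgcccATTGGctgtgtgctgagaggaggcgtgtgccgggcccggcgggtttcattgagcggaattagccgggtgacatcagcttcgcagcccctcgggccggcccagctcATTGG

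In the RefSeq promoter of Olig2, 300 bp from 250 bp upstream of its start to 50 bp downstream, CCAAT occurred 2 times, 203 and 98 bp upstream, and 37.4% of 32851 RefSeq promoters of that length held the word. A TATAAA began 8 bp ahead of the RefSeq start, a word that 13.6% of promoters held. No CANNTG was present in these 300 bp, whereas 72.3% of promoters had one. The promoter table held no entry for Olig1.

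The neighboring peaks on each side of the locus belonged to other genes, at distances that are not long for the mean density of chromosome 16, given below. The next peak upstream, centered 87109 bp before the first, scored 10.3 and was assigned to 4932438H23Rik, an uncharacterized protein-coding gene. The next peak downstream was centered 179128 bp after the last, scored 9.53 and lay at the promoter of Ifnar1, a subunit of the receptor for type I interferons. Ifnar2, which encodes the other subunit and is the nearer gene, had no peak. On the upstream side, the 4 windows of 100 kb ahead of the one with the first peak of the locus held 2, 1, 1 and 3 peaks, 7 in all. Within 100 kb of either start, a span of 244.22 kb, the density was 2.87 peaks per 100 kb, against 0.163 over chromosome 16 and 0.160 over the genome.

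In fixed windows of 100 kb, the fullest window of the locus, from 91200001 to 91300000, held 4 peaks, and 48 of 27268 windows (0.176%) held as many or more. Counting only peaks farther than 1 kb from a TSS, it held 3, and 85 windows (0.312%) held as many or more. The locus thus belonged to a small set of crowded windows, and other windows were as full.

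An enhancer from the VISTA collection, mm817, with activity in the neural tube, midbrain and forebrain of mouse embryos, is annotated at 91139145-91142270. It ends 42125 bp before the first peak and 83280 bp before the Olig2 start. Its sequence held 3 CAGCTG sites, and no Olig2 peak of the list fell in it, as was the case for most CAGCTG sites between the first and the last peak.

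The number of peaks per gene sets these counts against the genome. Of 21787 RefSeq protein-coding genes, 14.1% had at least 1 peak assigned to them. At least 3 peaks, the number of Olig1, were found for 112 genes (0.514%), and at least 4, the number of Olig2, for 31 (0.142%). Leaving out peaks within 1 kb of a TSS, Olig1 and Olig2 had 3 each, and 84 genes (0.386%) had as many or more. Up to 7 peaks were assigned to 1 gene, and 81 genes had exactly 3 and 22 exactly 4. The assignment favors genes with much empty sequence around them, which this count does not take into account.

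**Figure D4:**
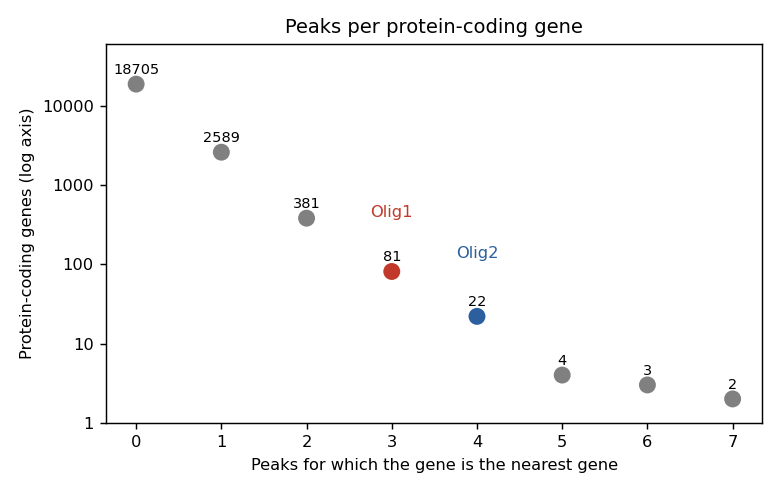
Number of protein-coding genes (log axis) against the number of peaks for which each is the nearest gene, with the class that holds Olig1 in red and that of Olig2 in blue. The class of 0 peaks holds 18705 genes, that of 3 peaks holds 81 and that of 4 holds 22.

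The assignment of peaks to a gene was checked against RefSeq. From the peak center to the nearest start of a protein-coding gene, all 7 peaks kept Olig1 or Olig2. When non-coding genes were allowed, 4 kept it. The −41.1 kb peak went to Gm9881 at 12812 bp, the −33.4 kb peak to Gm41492 at 8450 bp and the +20.9 kb peak to Gm52261 at 12634 bp, a non-coding RNA whose 3′ end overlaps that of Olig2. All 3 were peaks of Olig2, which was left with its promoter peak, and the 3 peaks of Olig1 stayed.

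Genes with a similar set of peaks were looked up by number, position and highest score. Like Olig2, with 4 peaks of which exactly 1 lay within 1 kb of the TSS and the strongest did not, were 5 genes. The nearest to the highest score of Olig2, 18.5, was Pim3, a serine/threonine kinase, at 16.1, followed by Meak7, a regulator of mTOR signaling, at 24.6. Arhgap23 followed at 34.2, and Vgll4, a cofactor of TEAD factors, at 45.7. The last was Cnp, which encodes an abundant enzyme of myelin, at 46.5. Like Olig1, with 3 peaks and none within 1 kb, were 53 genes. The nearest to its highest score of 62.5 was St3gal3, a sialyltransferase, at 63.4. Then came Maml3, a Notch coactivator, at 57.9, Gli2, a mediator of Sonic hedgehog signals, at 69.0, Tns3, a focal adhesion protein, at 55.9, and Wnt7b, a Wnt ligand, at 71.0. Likeness here is of peak numbers and scores in 1 list and says nothing of shared control.

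Genes that work with or around Olig1 and Olig2 were then counted from 5 lists. The lists were drawn up with earlier results of these data known and hold genes that the paper names as targets. Part of any excess over all genes is therefore built in, and the shares are a description only. A gene had a peak here only if it was the nearest gene of that peak, a rule that favors genes with much empty sequence around them. Of the 52 genes, 19 (36.5%) had a peak, beside 14.1% of all protein-coding genes. At least 3 peaks were found for 5 of the 52 (9.62%), beside 0.514% of all protein-coding genes, and at least 4 for 2 (3.85%), beside 0.142%.

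Among the relatives and bHLH partners of Olig2, 3 of 10 (30.0%) had a peak, beside 14.1% of all protein-coding genes. Id3, an inhibitor that pairs with bHLH proteins without binding DNA, had 1 peak with a score of 56.4, at −3376 bp from its TSS and without the E-box motif. Tcf4, which encodes an E protein and dimer partner, had 2 peaks with a highest score of 27.1, at 191289 bp from its TSS. Id1, a second inhibitor, had 2, with a highest score of 14.2, at −6451 bp. Olig3, the third Olig gene, and the related Bhlhe22 and Bhlhe23 had none, and neither did the E protein genes Tcf3 and Tcf12 nor Id2 and Id4.

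Of the genes that pattern the domain in which Olig2 first appears, 4 of 11 (36.4%) had a peak. Gli2 reached 69.0, Nkx6-2, a homeodomain factor of the same progenitors, 53.9, and Ptch1, the receptor of Sonic hedgehog, 32.1, whereas Shh itself had 2 peaks of at most 4.30. From the TSS, these highest scores lay at 76735 bp for Gli2, 37291 bp for Nkx6-2, 12768 bp for Ptch1 and −100340 bp for Shh. Nkx2-2, which bounds the domain ventrally, counted among the 7 that were the nearest gene of no peak. Nkx2-2os, the non-coding gene on its opposite strand, had a peak with a score of 55.0. The paper names Nkx2.2 as an Olig2 target, places a peak in DNA with enhancer activity in vivo and tested Nkx2.2 by ChIP-qPCR. Its absence from the count here rests on the name of the nearest gene. None of the 6 motor neuron factors (Neurog2, Mnx1, Lhx3, Lhx4, Isl1 and Isl2) had a peak. With 14.1% of all protein-coding genes having one, a set of 6 genes would often have none.

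Of the 19 factors of the OL lineage, 10 (52.6%) had a peak, beside 14.1% of all protein-coding genes. The highest scores were those of Nfia, a gliogenic factor, at 52.3, Klf9, a thyroid hormone response gene, at 39.9 over 3 peaks, Tcf7l2, a Wnt effector of OL differentiation, at 33.4, and Zfp536, a repressor of neuronal differentiation, at 24.2 over 5 peaks. These peaks were far from the TSS, at 226876 bp for Nfia, −84151 bp for Klf9, 134212 bp for Tcf7l2 and 65126 bp for Zfp536. Sox10 and Myrf, which drive myelin genes, were the nearest gene of no peak. A peak in their distant regulatory DNA could be listed under another gene, so binding there is not excluded. Of the 6 chromatin partners, Chd7, a remodeler that acts in OL precursors, had 6 peaks with a highest score of 37.2, at 175542 bp from its TSS. Chd8, a related remodeler, had 1 with a score of 23.9, at −20260 bp. The −3.6 kb peak of Olig1 thus scored above every gene of the lists apart from Gli2.

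The primers of the study's ChIP-qPCR for Olig1 were placed on the genome, because such primers carry the check of a peak by a second method. The pair is listed with the coordinates of the −3.6 kb peak.
Olig1 forward primer: ccatcgagatccgtccacag
Olig1 reverse primer: tgttggaagcagagaccgac

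Each primer of 20 bases had 1 exact match in the assembled chromosomes, and both matches were on chromosome 16 at the +36.2 kb peak. The forward primer matched the plus strand at 91305820-91305839 and the reverse primer the minus strand at 91305966-91305985. The product would be 166 bp long, from 117 bp left to 48 bp right of the center of the +36.2 kb peak, and encloses the whole of that peak. It starts 39633 bp beyond the end of the −3.6 kb peak. It held 1 CANNTG, the CACCTG at the edge of the peak, and no CAGCTG. The listed coordinates and the primer sequences thus point to separate peaks of Olig1, and the values of the qPCR were not analysed here.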

How the data were processed

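Olig2 ChIP and Input Control were prepared from spinal cord, and the list of peaks was the source of all peak values. Sequence came from GRCm38.p6, genes from RefSeq and GENCODE M21, the VISTA enhancer from the RefSeq annotation, and the Olig1 primers from the study's primer list. Per the study's methods, the authors used BWA for alignment to mm10, MACS2 for peaks on 2 pooled experiments (fragment size, 148 bp) and HOMER for annotation and motifs. The peak score was deposited on a scale that is not named and was used for ranks and ratios within the list only. The GC fraction of each 51 bp was deposited by the authors and equaled that of GRCm38.p6 for 4215 of 4215 peaks, within 0.0001. The words of all 7177 deposited motif hits stood in the genome where the list puts them. The distance to the TSS, in bp, was used as deposited by the authors, and distances to both genes were computed from the peak center to RefSeq starts.

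Words were searched on both strands around the peak center. No test was run, because a single pooled list gives no spread between replicates, and the list holds no read counts. Of 3463 nearest genes, 3459 were matched to RefSeq. The search for words was tested on simulated data. The members, the gene lists and the rules were chosen with earlier results of these data known. Genes named are those next to the locus, up to 5 like each Olig gene and up to 4 per list with the highest score. Genes without a peak and Nkx2-2os were named after their values were seen. A second table, which repeats 5 peaks of the list, was not used. Alternatives changed the score required (10 or 20), the rule for the nearest gene, the window widths and the distance from the TSS. Python 3.11.15, numpy 2.4.6, pandas 2.3.3, pysam 0.24.0 and matplotlib 3.10.9 were used.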

Additional observations from a re-analysis of the deposited data

How the results depend on the processing

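Of the 40 alternatives, 25 left the result the same and 15 moved it. The same meant within 1.5 times the count, or a median score within the spread of the 7 scores. The alternatives for the median drew on these same scores, so they could hardly leave that spread. The windows with CAGCTG were compared by count, 75 and 70, while their share fell from 12.4% of 607 windows of 200 bp to 2.94% of 2383 windows of 51 bp. With a score of at least 10, 4 of the 7 peaks remained, and with at least 20, 2 (−3.6 and +36.2 kb of Olig1). Assigned to the nearest start of any RefSeq gene, 4 remained. Genes with at least 1 peak numbered 3082, and 1947, 841 and 1662 at a score of 10, at a score of 20 and with peaks farther than 1 kb from the TSS. Genes with at least 3 peaks fell from 112 to 39 and 6 at the higher scores. Genes with at least 4 fell from 31 to 13 and 0, and to 20 with peaks farther than 1 kb. Windows as full as that of the locus rose from 48 to 533 at 50 kb and to 363 at a score of 10, since the locus then held at most 2 peaks a window. Listed genes with a peak fell from 19 to 11 at a score of 20 and to 3 with peaks within 1 kb of the TSS. In these settings fewer peaks were counted, other than with the rule for the nearest gene and the narrower window.

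No paired analysis was possible because the list comes from pooled reads and the 2 experiments cannot be separated. For the same reason no replicate could be left out. With 1 score a peak, the order of scores that lie close together, such as 18.5 and 17.1, cannot be told from error.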

Other observations

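The deposited peaks carry numbers that run in genome order, up to 7859, and the list holds 4215 of them (53.6%). The locus spans numbers 2892 to 2903, of which 7 of 12 (58.3%) are in the list and 5 are not. Of these, 1 lies between the −33.4 kb peak and the promoter peak, 1 between the promoter peak and the +20.9 kb peak, and 3 between the −3.6 and +36.2 kb peaks of Olig1. Every peak of the list carries a deposited motif hit, and whether the missing numbers lacked one is unknown. What these numbers stood for was not tested, so the absence of a peak from either gene body or the Olig1 promoter holds for the list only. The same holds for the motif shares given above.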
